A study of Mus musculus with 2 samples.

Results

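The steroidogenesis genes of Leydig cells were followed in testes of 10 day old mice. The members were Star, Cyp11a1, Cyp17a1, Hsd3b1, Hsd17b1, Hsd17b3, Lhcgr and Insl3, chosen by name for their role, and every probe set annotated to exactly 1 of these symbols was taken. Of the 8 members, 7 had such a probe set, 10 probe sets in all, among 8251 genes with a value. Lhcgr, the receptor for luteinising hormone (LH), was annotated to no probe set and has no value here.

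The series compared heterozygous (Mili+/-) with homozygous mutant (Mili-/-) mice at day 10 after birth, with 1 array of polyadenylated whole-testis RNA for each genotype. MILI, encoded by Piwil2, is a piRNA-binding protein of germ cells, and the labels place the arrest of the mutant germ cells early in the first meiotic prophase, with dying cells from the day after the one sampled. The labels do not give the strain, the design of the mutant allele or the number of mice behind an array. Both groups carry at least 1 mutant allele, and no wild-type testis was measured. With 1 array per genotype no value has a replicate and no test was possible, so every difference below describes these 2 arrays.

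Leydig cells lie between the seminiferous tubules and make androgens from cholesterol when LH, acting through cyclic AMP, stimulates them. STAR moves cholesterol into the mitochondrion, CYP11A1 cleaves its side chain to give pregnenolone, and HSD3B1 and CYP17A1 turn pregnenolone into androstenedione, which a ketosteroid reductase such as HSD17B3 converts to testosterone. Before puberty the testis holds remaining fetal Leydig cells and the first cells of the adult type. Fetal Leydig cells of the mouse are known to lack Hsd17b3 and to leave the last step to other cells.

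Signals are linear intensities in arbitrary units. After log2 transformation each array was centred on its median. Before that step the Mili-/- median was higher by 0.11 on the log2 scale. Differences are given as Mili-/- minus Mili+/-. Unless stated, they and the folds are after centring, while signals are as deposited. A gene was compared with others if its brighter probe set reached the median of the array on either array (38.5 in Mili+/- and 41.5 in Mili-/-), as 5095 genes did. Their median difference was -0.13, and the central 95% of them lay between -0.69 and 0.58. Probe sets of 1 gene that each reached the median on either array disagreed with an SD of 0.31 over 720 genes. This SD is the sole error available and leaves out dimmer probe sets, animals and hybridisations. Of the members, 5 passed this filter.

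Among these 5, Cyp17a1, Hsd3b1 and Hsd17b1 had lower signals in the Mili-/- array and Cyp11a1 was nearly equal, while the probe sets of Star went opposite ways. The differences were small. At a threshold of 0.32 on the log2 scale, 3 of the 5 were lower and 0 higher, against 22.3% and 7.28% of all genes past the filter. At 2-fold, 0 of the 5 were called in either direction, against 0.53% of all genes lower and 0.314% higher. The count at 0.32 depended on the scaling. With the values as deposited Hsd17b1 alone was past it, 1 of 5, against 12.3% of all genes lower and 12.1% higher. Quantile normalization and loess on brightness also left 1 of 5, against 12.1% of all genes lower and 11.5% higher after the former and 12% and 11.7% after the latter.

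**Figure D1:**
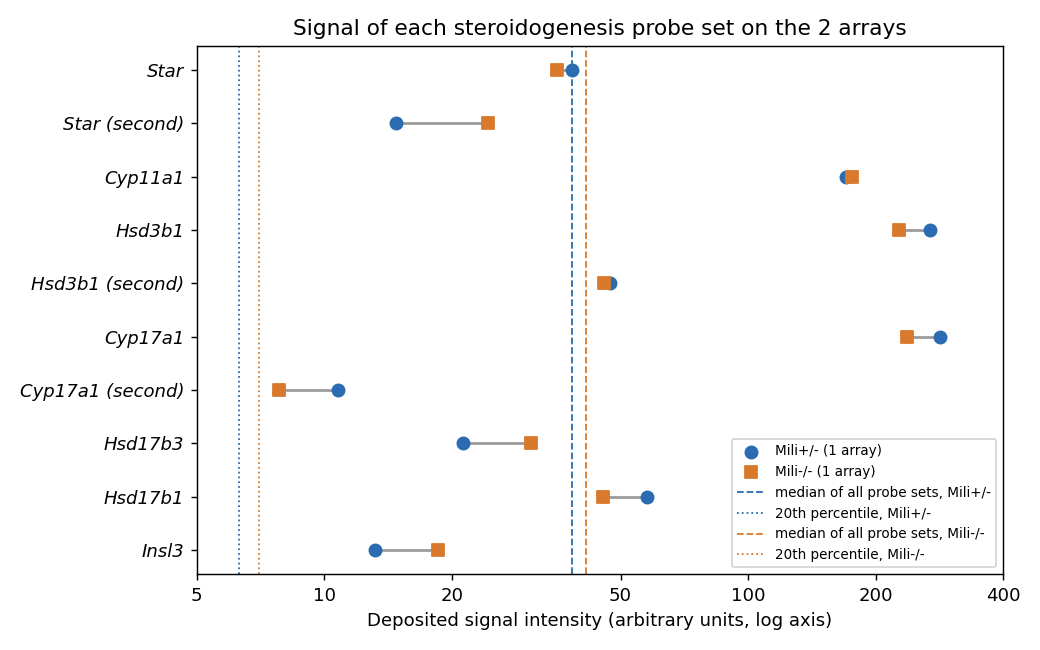
Deposited signal intensity (log axis, arbitrary units) of the 10 probe sets in Mili+/- (circles) and Mili-/- (squares), 1 array each; dashed lines mark the median and dotted lines the 20th percentile of all probe sets on each array. Cyp11a1, Hsd3b1 and Cyp17a1 lie well to the right of the medians, while Hsd17b3, Insl3 and the second probe sets of Star and Cyp17a1 lie below them on both arrays.

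Star, which carries out the regulated step of cholesterol entry, was read by 2 probe sets that went opposite ways. The signal of the brighter (92213_at) was 38.5 in Mili+/- and 35.5 in Mili-/-, a log2 difference of -0.23. It stood exactly at the median of the Mili+/- array and passed the filter through that array alone, which favours a lower value in Mili-/-. The other (161784_f_at), whose suffix marks sequence shared within a family, had 14.8 and 24.4, a difference of 0.61, and lay under the median of both arrays. The gap of 0.84 between them was 1.90 times the SD expected between 2 probe sets of a gene (0.44). That SD came from probe sets past the filter, which the dimmer one was not, so it need not hold for this pair. No direction is given for Star.

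Cyp11a1, the side-chain cleavage enzyme that commits cholesterol to steroids, gave 169.9 in Mili+/- and 175.5 in Mili-/- (96228_at). Its log2 difference was -0.06 after centring and 0.05 as deposited. It was the only one of the 5 above the median of all genes, with 60.0% of the 5095 genes below it. Its direction turned with the scaling, and in each case it was smaller than the SD of 0.31.

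Hsd3b1, which oxidises pregnenolone to progesterone, gave 269 in Mili+/- and 227 in Mili-/- (103072_at). Its difference after centring was -0.36 or 1.28-fold lower. The second probe set (161261_f_at) had 47.1 and 45.6, a difference of -0.16. Both were lower after centring, and their gap of 0.20 was under the SD of 0.44. The second stood close to the median of all genes (-0.13) and at -0.05 as deposited, so it gives no clear direction. The Hsd3b genes are close copies of each other, so part of a signal can come from a relative. The probe sets of Hsd3b2 (8.8 and 18.7), Hsd3b3 (7 and 13.2), Hsd3b5 (13.3 and 10.9) and Hsd3b6 (11.2 and 17.8), the last the form of adult Leydig cells, were all under the median of both arrays; these 4 were looked up after the values of Hsd3b1 had been seen.

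Cyp17a1, the enzyme that hydroxylates progesterone and splits off its side chain to give an androgen, gave 283 in Mili+/- and 237 in Mili-/- (102416_at). The log2 difference after centring was -0.37, or 1.29-fold lower. Its second probe set (161721_f_at) was dim, with 10.8 and 7.8, and stood at -0.58. With a floor at the 40th percentile both of its signals were raised to that floor and it stood at 0.024, so it adds no direction. Hsd3b1 and Cyp17a1, which act next to each other in the pathway, differed by 0.01 on the log2 scale.

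The last step was read by Hsd17b1 and Hsd17b3. Hsd17b1, best known for making estradiol in granulosa cells and also expressed by Sertoli cells of the young testis, had 57.7 in Mili+/- and 45.5 in Mili-/- (92557_at). Its difference of -0.45 after centring, or 1.37-fold lower, was the lowest of the 5 and had 10.8% of all genes below it. This was its only probe set. It stood not far above the median, at percentile 57.9 in Mili+/- and 52.0 in Mili-/-, and did not pass the filter at the 75th percentile. Hsd17b3, the testosterone-forming enzyme of adult Leydig cells, had 21.3 and 30.8 (101184_at), under the median of both arrays. It was higher in the Mili-/- array by 0.42. Hsd17b1 and Hsd17b3 thus lay on opposite sides, but Hsd17b3 was too dim to enter the comparison, and whether it was detected is not known.

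Insl3, the Leydig cell hormone that guides descent of the testis, was dim as well. Its only probe set (162394_r_at), with a suffix for relaxed probe selection, had 13.2 in Mili+/- and 18.5 in Mili-/-, a difference of 0.38. A probe set annotated to both Jak3 and Insl3, which is outside the rule, had 10.4 and 16. With a floor at the 40th percentile Insl3 stood at 0.024, since both signals were raised to that floor. Of the other insulin-like and relaxin genes and their receptors (6 listed), only Rln1 had a probe set, with 6.6 and 2.1.

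**Figure D2:**
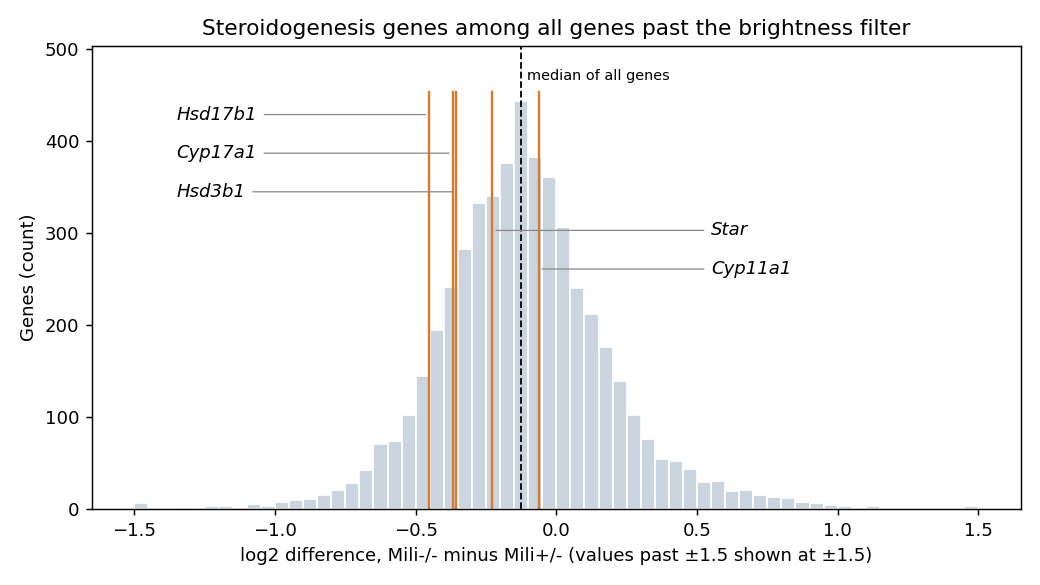
Number of genes (vertical axis) by log2 difference, Mili-/- minus Mili+/- (horizontal axis), for the 5095 genes past the brightness filter, with the 5 steroidogenesis genes as vertical lines and the median of all genes dashed. Hsd17b1 (-0.45), Cyp17a1 (-0.37) and Hsd3b1 (-0.36) lie in the lower part of the main peak and Cyp11a1 (-0.06) just above its middle.

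Placed among all genes, Hsd17b1 ranked 549 from the lowest, Cyp17a1 893, Hsd3b1 969, Star 1762 and Cyp11a1 3060 of 5095. All 5 therefore lay inside the central 95% of differences. Differences between members do not depend on a constant per array. The gap from Cyp17a1 to Cyp11a1 was 0.31 and that from Hsd17b1 to Cyp11a1, the widest among the 5, was 0.39, both under the SD of 0.44 for a gap between 2 probe sets. The order of the members was thus not separated beyond probe set disagreement. Over the 5 the median was -0.36, and over the 4 that passed on both arrays it was -0.36, against -0.13 for all genes.

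**Figure D3:**
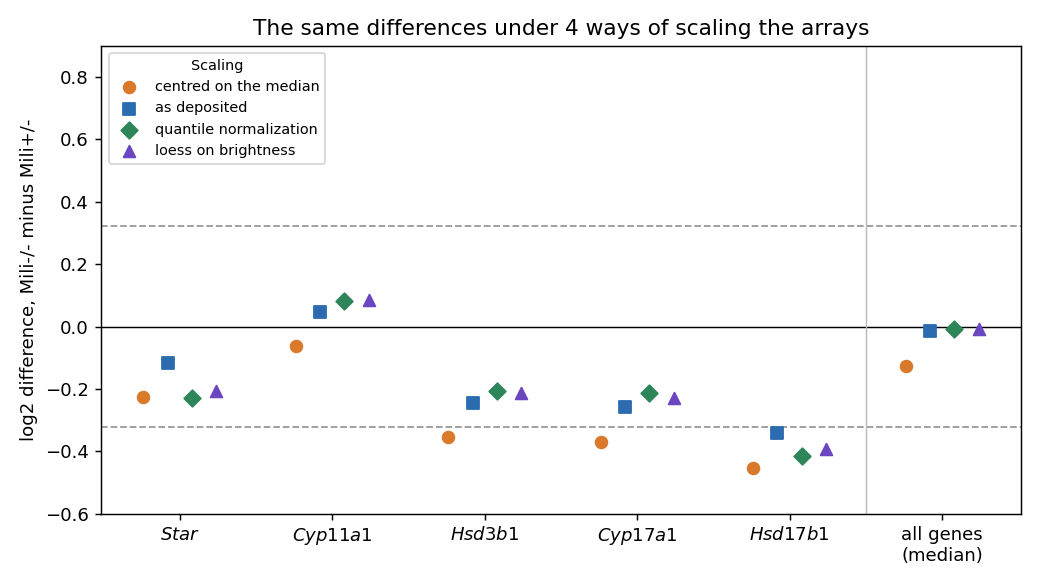
The log2 difference (vertical axis, Mili-/- minus Mili+/-) of each of the 5 members and the median of all genes past the filter, under 4 scalings of the arrays shown by symbol; dashed lines mark 0.32 in either direction. Hsd17b1 is past the lower line under all 4, Cyp17a1 and Hsd3b1 only after median centring, and Cyp11a1 changes side of 0.

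Under the 3 other scalings (as deposited, quantile normalization and loess on brightness) Cyp17a1 stood between -0.26 and -0.21, Hsd3b1 between -0.25 and -0.21 and Hsd17b1 between -0.41 and -0.34, while Cyp11a1 stood between 0.05 and 0.08. Cyp17a1, Hsd3b1 and Hsd17b1 were below the median of all genes under each of these 4 scalings. Set against that median, as deposited or centred, Cyp17a1 was lower by 0.24, Hsd3b1 by 0.23 and Hsd17b1 by 0.33 on the log2 scale. For Cyp17a1 and Hsd3b1 this was under the SD of 0.31 between probe sets of a gene, and for Hsd17b1 just over it.

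The Leydig cell label was checked against further markers of the cell. Of 9 markers that are not members, 7 had a probe set and 6 passed the filter, with a median of -0.08. The orphan receptor gene Nr5a1 stood at 0.44, the adhesion gene Vcam1 at 0.16, the lipoprotein receptor gene Scarb1 at -0.06, Ptgds, which encodes a prostaglandin D synthase, at -0.10, the ferredoxin gene Fdx1 at -0.23 and the matrix gene Thbs2 at -0.36. Other probe sets stood at -0.34 and 0.08 for Vcam1, at 0.27 and 0.29 for Ptgds and at 0.04 for Fdx1, so probe sets of these genes disagreed in direction. Among the 6, 1 was lower by at least 0.32 and 1 higher by at least 0.32, against 22.3% and 7.28% of all genes. Several of these genes are also active outside Leydig cells, Nr5a1 and Ptgds in Sertoli cells among them.

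Nr5a1 encodes steroidogenic factor 1, the nuclear receptor that switches on most genes of steroid synthesis. Its brightest probe set had 602 in Mili+/- and 883 in Mili-/-, 1.36-fold higher. A further one had 375 and 526 (0.38) and the next 166.5 and 192 (0.09), both with suffixes for shared sequence or relaxed selection. The remaining probe sets were dim, with 10.2 and 17.9 and with 5 and 1.9. The 3 bright probe sets were thus higher in the Mili-/- array, though the one at 0.09 differed by less than the SD of 0.31. Cyp17a1 and Hsd3b1, which NR5A1 is known to activate, were lower. Cyp11a1 was nearly equal (-0.06), and the probe sets of Star went opposite ways. The part of Nr5a1 in these values was not tested.

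Since NR5A1 binds near the starts of its targets, the 250 bases before each annotated start were read from RefSeq (GRCm38.p6), which had an entry for 5 of the 8 members, with 6 starts (all but Star, Cyp17a1 and Hsd17b1). The motifs CAAGGT and CAAGGC, short forms of the NR5A1 site, were sought on both strands, and no matches overlapped in these windows. Other forms of the site were not sought, so a window without a match can still hold another form. Insl3 (chr8:71689002-71689251, plus strand) held 1 of each, starting 137 and 57 bases before the start, and Hsd17b3 (chr13:64089202-64089451, minus strand) held 1, starting 99 bases before it. No match was found in Hsd3b1 (chr3:98859795-98860044, minus strand), in Lhcgr or before either start of Cyp11a1, of which the downstream one (chr9:58014702-58014951, plus strand) is shown. The windows with a match, and those of Hsd3b1 and Cyp11a1 without one, are shown 5′ to 3′, and capitals mark the matches. Whether a match goes with the signal of a member was not tested.
Insl3: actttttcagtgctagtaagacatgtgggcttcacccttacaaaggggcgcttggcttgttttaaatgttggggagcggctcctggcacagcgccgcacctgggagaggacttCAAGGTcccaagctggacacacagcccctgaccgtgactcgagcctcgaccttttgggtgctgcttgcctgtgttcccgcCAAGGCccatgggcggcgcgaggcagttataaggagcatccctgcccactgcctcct
Hsd17b3: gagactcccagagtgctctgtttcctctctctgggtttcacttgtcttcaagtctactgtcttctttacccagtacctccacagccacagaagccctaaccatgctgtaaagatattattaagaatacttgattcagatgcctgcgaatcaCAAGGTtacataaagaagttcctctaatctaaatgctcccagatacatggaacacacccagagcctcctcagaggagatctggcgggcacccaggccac
Hsd3b1: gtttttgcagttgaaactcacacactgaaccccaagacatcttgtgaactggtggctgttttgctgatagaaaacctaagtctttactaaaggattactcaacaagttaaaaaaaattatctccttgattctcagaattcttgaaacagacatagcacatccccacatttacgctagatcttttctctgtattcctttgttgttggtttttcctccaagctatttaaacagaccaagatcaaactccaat
Cyp11a1: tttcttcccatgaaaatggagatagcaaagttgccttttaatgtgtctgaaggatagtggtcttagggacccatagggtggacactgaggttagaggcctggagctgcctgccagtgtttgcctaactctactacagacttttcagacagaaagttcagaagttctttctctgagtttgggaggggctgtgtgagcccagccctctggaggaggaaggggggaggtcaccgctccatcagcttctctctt
Of all 32851 windows of this length in the table, 25.1% held CAAGGT or CAAGGC, so 2 of 6 is close to that share. The TATAA motif, searched on both strands, was found before Insl3, where matches on the 2 strands overlap, and in 22.8% of all windows. A match describes letters in these windows and is not a measured binding site.

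Genes that supply sterol to the mitochondrion lay on either side of the median of all genes. The counts at 0.32 in this list and those below stand against 22.3% of all genes lower and 7.28% higher. Of 20 listed, 11 had a probe set and 9 passed the filter, with a median of -0.06, and 1 was lower by at least 0.32 and 0 higher. That 1 was Dbi, which encodes an acyl-CoA binding protein that binds TSPO, with 966 and 826 (-0.34). Tspo, an outer membrane protein of mitochondria, stood at 0.18 (552 and 677), the endosomal sterol transporter gene Stard3 at 0.17 and Npc2, which takes cholesterol out of lysosomes, at 0.14.

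Genes that bring electrons to the steroid enzymes had a median of -0.12 over 7 of 10 listed, with 1 lower by at least 0.32 and 0 higher. Idh1, a source of NADPH, stood at -0.44 (306 and 243). Fdx1, the ferredoxin that serves CYP11A1, stood at -0.23 (712 and 653). H6pd stood at 0.19 and Cyb5a, whose product aids the side-chain cleavage by CYP17A1, at 0.14 (440 and 524).

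Other enzymes of steroid synthesis and metabolism went both ways. Of 31 listed, 17 had a probe set and 8 passed, with a median of 0.03, and 1 was lower by at least 0.32 and 1 higher. Hsd17b12, which also elongates fatty acids, stood at -0.48 (189 and 146). The oxysterol hydroxylase gene Cyp7b1 stood at 0.60 (25.5 and 41.8), passed through the Mili-/- array alone and had a second probe set at -0.39. H2-Ke6, also named Hsd17b8, stood at 0.20 and the peroxisomal enzyme gene Hsd17b4 at 0.15.

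The signalling that carries the LH stimulus had a median of -0.09 over 17 genes (31 listed, 22 with a probe set), with 1 lower by at least 0.32 and 1 higher. Prkacb, a catalytic subunit of protein kinase A, stood at -0.51 (311 and 236), while the regulatory subunit gene Prkar1b stood at 0.316 (58.2 and 78.2), just under the threshold of 0.322, and at 0.96 in a dim second probe set. Creb1, a factor activated by that kinase, was the 1 higher, at 0.49 (32.5 and 49.1), but passed through the Mili-/- array alone and stood at -0.09 and -0.48 in its other probe sets. The anchoring protein gene Akap1 stood at 0.22, with others at -0.60 and 0.02. Probe sets of Creb1 and of Akap1 thus disagreed in direction.

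Transcriptional regulators of the steroidogenic genes had a median of -0.13 over 25 genes (44 listed, 37 with a probe set). Of these, 5 were lower by at least 0.32 and 3 higher, against 22.3% and 7.28% of all genes. Among the 5 was Fos (-0.38), named after its value was seen. Fos passed through the Mili+/- array alone and stood at 0.54 in a dim second probe set. Beside Nr5a1 and Creb1, Mef2d stood at -0.50 (320 and 244) and Yy1 at 0.33, with a second probe set at -0.40. Paracrine signals that reach Leydig cells had a median of -0.10 over 21 genes (37 listed, 28 with a probe set). Of these, 5 were lower by at least 0.32 and 2 higher, against the same shares of all genes. The Sertoli cell hormone gene Amh stood at 0.54 (61.6 and 96.5), Igf1 at 0.42, the inhibin subunit gene Inha at 0.30 and the receptor gene Notch2 at -0.61, with a second probe set of Notch2 at 0.90.

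**Figure D4:**
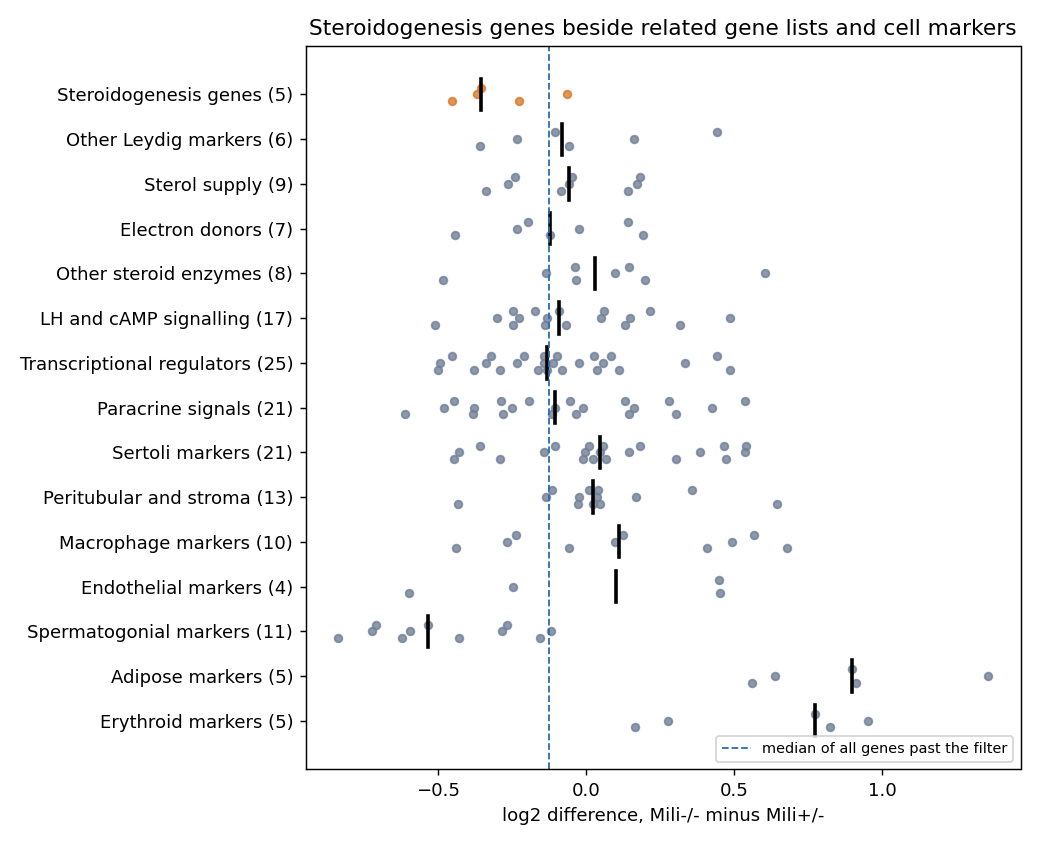
Each point is the log2 difference (horizontal axis, Mili-/- minus Mili+/-) of 1 gene past the brightness filter, by list (rows, with the number of genes), black bars are list medians and the dashed line is the median of all genes. The median of the 5 steroidogenesis genes (-0.36) lies left of the medians of the other Leydig, Sertoli and peritubular markers (-0.08, 0.05 and 0.02) and right of that of the spermatogonial markers (-0.53), and the points of these lists overlap.

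Markers of other cells in the testis also differed between the arrays. Of 25 Sertoli markers, 22 had a probe set, with summed signals of 11349 in Mili+/- and 12716 in Mili-/-. The 21 past the filter had a median of 0.05, with 3 lower and 5 higher by at least 0.32, against 22.3% and 7.28% of all genes. Tsx (which passed through the Mili-/- array alone) and Amh stood at 0.54 and Shbg and Rhox5 at 0.47, while Inhbb (-0.44), Dmrt1 (-0.43) and Fabp3 (-0.36), named after their values were seen, were the 3 lower. Spermatogonial markers (15 of 20 with a probe set) summed to 4469 and 3747 and had a median of -0.53 over 11. Of these, 7 were lower and 0 higher by at least 0.32, against 22.3% and 7.28% of all genes. Dmrt1 is on both the Sertoli and the spermatogonial list and also counts among the 7. Sall4 (which passed through the Mili+/- array alone) stood at -0.84, Stra8 at -0.72, Mki67 at -0.71 (0.37 in its dim second probe set) and Kit at -0.62. Named after their values were seen, Dazl (-0.28), Uchl1 (-0.27), Ccnd2 (-0.15) and Ddx4 (-0.12) did not reach 0.32, and Ddx4 stood near the median of all genes (-0.13). Peritubular and stromal markers (14 of 14) summed to 7654 and 8302 (median 0.02 over 13), with 1 lower and 2 higher by at least 0.32. Actg2 stood at 0.64, Myh11 at -0.43, Fn1 at 0.36 and Cnn1 at 0.17. In whole testis RNA, fewer cells of a type and less RNA per cell cannot be told apart, and the part of these markers in the steroidogenesis values was not tested.

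Adrenal cortex, which can be dissected along with a testis, shares Star and Cyp11a1 with Leydig cells. It had 4 of 7 markers with a probe set, summing to 266.5 and 289.8. Cyp21a1, the adrenal steroid hydroxylase, had 104 and 120 (0.10), read by a probe set with a suffix for shared sequence, and Dab2 stood at -0.12. The other 2 did not pass the filter. Adipose markers (8 of 10) summed to 273 and 539 (median 0.90 over 5, of which 3 reached the filter in Mili-/- only, and 0.74 when each array had to pass), with Car3 at 1.36, Scd1 at 0.91, Adipoq at 0.90 and Fabp4 at 0.64. Macrophage markers (14 of 14) summed to 1026 and 1141 (median 0.11 over 10), with 1 lower and 4 higher by at least 0.32, against 22.3% and 7.28% of all genes. Those higher were Cx3cr1 at 0.68, which passed through the Mili-/- array alone, Mpeg1 at 0.57, Cd74 at 0.49 and Cd14 at 0.41, and the lower was Lyz2 at -0.44, named after its value was seen. Endothelial markers (8 of 8) summed to 652 and 649 (median 0.10 over 4), with Pecam1 and Cdh5 at 0.45, Eng at -0.25 and Mcam at -0.60. Pecam1 reached the filter in Mili-/- only. The endothelial median turned to -0.25 when a gene had to pass on each array, so no direction is given. Erythroid markers (7 of 12) summed to 2169.6 and 2841 (median 0.77 over 5), with Tspo2 at 0.95, Alas2 at 0.82, Rhd at 0.77 and Hba-a1 at 0.28. Alas2 and Rhd reached the filter in Mili-/- only, which picks genes with higher values there. The erythroid median was 0.28 when a gene had to pass on each array and also 0.28 without the filter. No probe set of any of these lists was at 0. The summed adipose and erythroid signals were higher in the Mili-/- array, and the part of these cells in the values of Cyp17a1, Hsd3b1 and Hsd17b1 was not tested.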

How the data were processed

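Polyadenylated testis RNA of each genotype was hybridised to 1 Affymetrix-type array. The authors' deposited values are linear signal intensities, and from the values they appear scaled to a common level, since the mean without the lowest and highest 2% was 100.05 on both arrays. The software that made them is not given in the sources used here. Of 12488 probe sets, 66 controls were left out. Symbols came from a platform annotation (10833 probe sets with 1 symbol, 396 with several, 1193 unnamed), updated by Entrez ID (10817 matched).

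Signals under the 20th percentile of their array (6.3 in Mili+/-, 7 in Mili-/-) were raised to it, log2 transformed and median centred. A gene took its probe set with the highest mean signal. Thresholds of 0.32 on the log2 scale and of 2-fold were used. The members, lists and thresholds were chosen with earlier results of these data known. Each list named up to 4 genes with the largest distance from the median of all genes. No gene was named for a like pattern, since 2 arrays give 1 difference per gene. The number of arrays limits the precision. Alternatives for scaling, floor, filter and probe set choice are given in the closing section. The code was tested on simulated data. Python 3.11.15, NumPy 2.4.6, pandas 2.3.3 and statsmodels 0.14.6 were used.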

Additional observations from a re-analysis of the deposited data

How the results depend on the processing

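Over 11 settings Cyp17a1 stood between -0.47 and -0.21, Hsd3b1 between -0.36 and -0.21 and Hsd17b1 between -0.45 and -0.34. They were lower in Mili-/- in each, but the floor, the filter and leaving out shared-sequence probe sets did not change their values. Only the other scalings and, for Cyp17a1 and Hsd3b1, the average over probe sets moved them. Averaging its probe sets moved Star to 0.19. With the floor at the 40th percentile its dim probe set and Insl3 stood at 0.024, and the dim probe set of Cyp17a1 turned from -0.58 to 0.024, because both of its signals were raised to the floor. The members lower by at least 0.32 numbered 1 of 5 as deposited, after quantile normalization and after loess, against 12.3%, 12.1% and 12% of all genes. Without the filter 3 of 7 were lower and 2 higher, against 1748 and 1040 of 8251 genes. Those higher, Hsd17b3 and Insl3, lay under the median of both arrays. With the filter at the 75th percentile, 3 members passed. The erythroid median moved from 0.77 to 0.28 without the filter or with it on both arrays and to 0.22 at the 75th percentile, and the endothelial median from 0.10 to -0.25 under both stricter filters. No paired analysis was possible because each genotype had 1 array.

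All genes lower and higher by at least 0.32 numbered 627 and 615 as deposited, 618 and 587 after quantile normalization, 612 and 596 after loess, 1748 and 1040 without the filter (8251 genes) and 557 and 101 with it at the 75th percentile (2786 genes), and 245 were higher with both arrays required to pass. At 2-fold they numbered 17 and 30 as deposited, 148 and 157 without the filter, 6 and 2 with both arrays required and 5 and 2 at the 75th percentile, with 25 higher after loess, 16 lower with the higher floor and 10 higher without probe sets of shared sequence. The cause of these changes was not tested beyond the number of genes compared.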
